A study of Homo sapiens with 18 samples.

Results

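OPM2 cells that had lost IKZF1 were set directly against OPM2 cells that had lost IKZF3, with the empty vector libraries left out of the test. The comparison rests on 4 of the 18 RNA-seq libraries of the series, taken as the count columns named for IKZF1 and for Aiolos in OPM2, with 2 libraries per knockout. OPM2 is an established human multiple myeloma line that carries the t(4;14) translocation. The IKZF1 knockout cells carried a CRISPR-Cas9 knockout of IKZF1 whose guide RNA was induced by doxycycline at 1 µg/mL for 72 h. The IKZF3 knockout cells carried the same kind of inducible knockout aimed at IKZF3, with the same doxycycline dose and time. For context, levels are also given for 3 further OPM2 groups of 2 libraries each: cells given lenalidomide at 10 µM for 72 h, cells with an empty vector and doxycycline, and untreated cells. Live cells of all groups were sorted by light scatter before RNA extraction. The IKZF1 knockout columns carry the letters B and C after the number 20, and both IKZF3 knockout columns carry the letter A after the number 35, and what these letters stand for is not stated. Whether the 2 libraries of a knockout are separate cultures or clones, and what share of cells was edited, is not stated either. The libraries of each knockout are called a and b below, in column order.

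Ikaros (IKZF1) and Aiolos (IKZF3) are closely related zinc finger transcription factors of lymphoid cells that bind similar DNA motifs, form dimers with each other and recruit repressor complexes such as NuRD. Plasma cells and myeloma cells express both. Lenalidomide directs both proteins to degradation through the cereblon ubiquitin ligase, and the series holds cells without one factor of the pair beside cells under the drug. The title of the series names CD38, the plasma cell surface enzyme bound by the antibody daratumumab.

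The 4 libraries held 14.9 and 16.5 M counts for the IKZF1 knockout and 15.7 and 24.2 M counts for the IKZF3 knockout, within a range of 11.8 to 24.2 M over the series. All levels are given in counts per 1 M counts of a library (CPM), scaled by the trimmed mean of M values (TMM) over the 10 OPM2 libraries. Between the 2 libraries of one group, 248 of 12633 tested genes differed by more than 2-fold in the IKZF1 knockout and 159 in the IKZF3 knockout, against 34 under lenalidomide, 998 with the empty vector and 20 in untreated cells. The empty vector pair therefore stands apart. Its values below are context, and they also enter the control range used further on to place genes. The cells kept the features of the labelled line: SDC1 (CD138) stood at 1693 and 1492 CPM in the IKZF1 knockout and at 1682 and 1413 CPM in the IKZF3 knockout, and NSD2, which t(4;14) brings under immunoglobulin control, at 1995 and 1681 CPM in the IKZF1 knockout and at 1881 and 1776 CPM in the IKZF3 knockout. The B cell marker MS4A1 had 0 counts in all 10 OPM2 libraries. Of 17 markers of T and NK cells, 15 were under 1 CPM in all 4 knockout libraries, with sums of 2.55 and 3.07 CPM in the IKZF1 knockout and 3.67 and 3.26 CPM in the IKZF3 knockout, and CD3D at 0. All 13 stromal and epithelial markers were under 1 CPM, with sums of 0.524 and 0.590 CPM in the IKZF1 knockout and 0.379 and 0.489 CPM in the IKZF3 knockout. Of 15 myeloid markers, 13 were under 1 CPM and the sums, most of them CD68 and CD33, were 34.0 and 41.0 CPM in the IKZF1 knockout and 32.8 and 30.9 CPM in the IKZF3 knockout. Of 14 erythroid and megakaryocyte markers, 11 were under 1 CPM and HBA1 was at 0, but HBD made most of the sums of 81.4 and 66.1 CPM in the IKZF1 knockout and 184 and 158 CPM in the IKZF3 knockout, and HBD was also present in untreated cells at 125 and 111 CPM. The part of these genes in the differences below was not tested.

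Neither targeted transcript was called different between the knockouts. IKZF1 (Entrez 10320, GRCh38 chromosome 7, 50303455 to 50405101) had 213.7 and 225.3 CPM in the IKZF1 knockout libraries, against 227.3 and 215.0 CPM in the IKZF3 knockout libraries, and the groups overlapped. IKZF3 (Entrez 22806, chromosome 17, 39757715 to 39864312) had 80.8 and 79.4 CPM in the IKZF1 knockout, against 69.6 and 66.7 CPM in the IKZF3 knockout, a log2 fold change (IKZF1 knockout over IKZF3 knockout) of 0.23 ± 0.10 (SE) with a 95% interval of 0.03 to 0.44 and an adjusted p of 0.133 in edgeR's quasi-likelihood test. For IKZF1 the log2 fold change was -0.01 ± 0.07 (interval -0.16 to 0.14, edgeR, adjusted p = 0.947). Counts over a whole gene do not show whether a frameshift is present, so these levels cannot check the labels. The relatives IKZF2 (Helios), IKZF4 (Eos) and IKZF5 (Pegasus) were not called either, with log2 fold changes of -0.26, -0.05 and -0.14.

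CD38, an ectoenzyme that consumes NAD, was not called different between the knockouts either. CD38 (Entrez 952, chromosome 4, 15778328 to 15853232) had 44.8 and 48.9 CPM in the IKZF1 knockout, against 44.3 and 51.9 CPM in the IKZF3 knockout. The 2 ranges overlapped, and the log2 fold change was -0.04 ± 0.10 (interval -0.26 to 0.18, edgeR, adjusted p = 0.844). The interval lies inside a 2-fold change either way. Both knockouts lay above the lenalidomide libraries, at 28.2 and 29.1 CPM, the empty vector, at 15.6 and 17.5 CPM, and the untreated cells, at 11 and 12.8 CPM.

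Across the transcriptome the knockouts differed by small amounts in many genes and by large amounts in few. The test used all OPM2 libraries other than the empty vector pair (8 libraries), so that lenalidomide and untreated cells contributed to the estimate of spread. At an adjusted p below 0.05, 864 of 12633 genes (6.84%) were higher in the IKZF1 knockout and 644 (5.1%) were lower, 11.9% in all. The median absolute log2 fold change of all tested genes was 0.17, and 10189 genes had a 95% interval inside a 2-fold change either way. Among the called genes, 221 were more than 2-fold higher in the IKZF1 knockout and 68 more than 2-fold lower. The lenalidomide and untreated pairs vary less than the knockout pairs, so the pooled spread is narrower than that of the knockouts themselves. With the 4 compared libraries alone, 239 of 12204 genes (1.96%) were higher and 117 (0.959%) lower, 2.92% in all, and all 356 were among the 1508 called with 8 libraries. Genes called in both fits carry the account below, a preference settled after the values were seen. With libraries of the other 2 lines added, 9.39% of genes were called with 16 libraries and 2.6% with all 18. In 6462 genes (51.2%) both libraries of one knockout lay above both of the other, so that separation on its own says little.

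**Figure D1:**
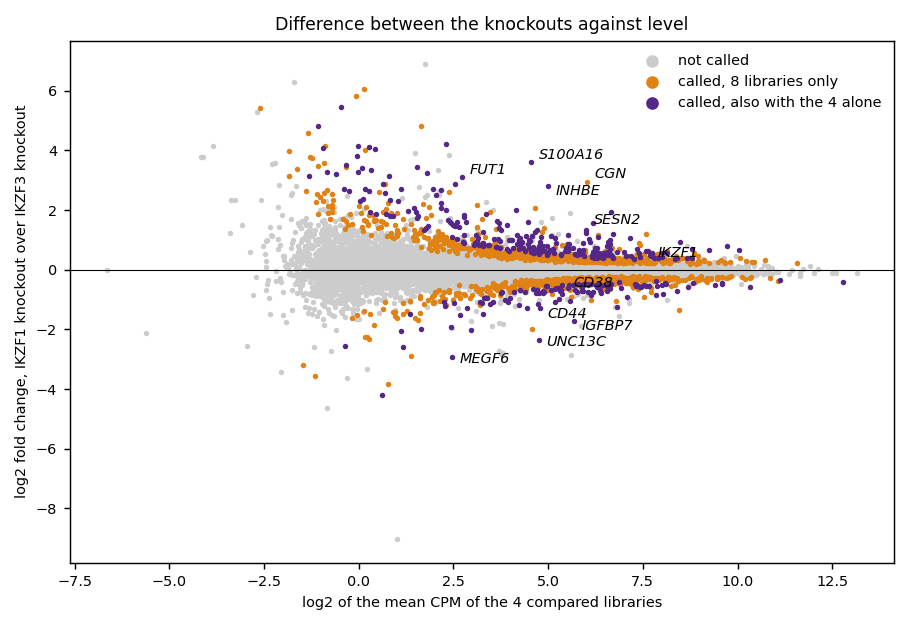
Each point is a tested gene: the x axis gives log2 of its mean CPM over the 4 compared libraries and the y axis its log2 fold change, IKZF1 knockout over IKZF3 knockout. Purple points were called with 8 libraries and with the 4 alone (356 genes), orange points with 8 libraries only, and grey points were not called; CD38 and IKZF1 lie near the line of no change.

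Of the gene lists examined, the one with most members called in one direction was the response to amino acid shortage and unfolded protein. In that response the kinases of the integrated stress response raise translation of ATF4, which pairs with C/EBP factors to switch on genes of amino acid synthesis and feedback, while IRE1 (ERN1) and XBP1 serve the endoplasmic reticulum of secretory cells. Of 35 tested genes of this list, 18 were higher in the IKZF1 knockout and 1 was lower, against 6.84% and 5.1% of all tested genes, and the list's median log2 fold change was 0.31 against 0.00 for all genes. The higher genes are led by targets and feedback genes of ATF4. With the 4 libraries alone 9 were higher and 0 lower, against 1.96% and 0.959% of all genes. Promoter windows, from 250 bases before to 50 after the annotated start, were found in RefSeq (GRCh38.p14) for 17 of the 18 higher genes, and 4 of them (23.5%) held TGATGNAA, the core of the element read by ATF4 with C/EBP partners, on either strand. The motif was in 169 of 10059 matched promoters of tested genes (1.68%), in 25 of 692 of the higher genes (3.61%), in 13 of 536 of the lower genes (2.43%) and in 1003 of all 27305 promoters of the table (3.67%). Among called genes over 2-fold apart the order was reversed, with 5 of 164 higher genes (3.05%) and 4 of 52 lower genes (7.69%). Among all tested genes of the list, 6 of 32 matched windows (18.8%) held it. The list is made of known genes of this response, so its share describes how the list was made. The 4 windows with a match are shown 5′ to 3′ in the direction of transcription, with the motif or its reverse complement in capitals, next to that of SESN2, the gene of the list with the largest difference, whose window has no match. They are ATF3 (chr1:212565157-212565456, plus strand, match from position -191 relative to the start), CHAC1 (chr15:40953221-40953520, plus strand, from -209), HERPUD1 (chr16:56931892-56932191, plus strand, from -176), ASNS (chr7:97872359-97872658, minus strand, from -68) and SESN2 (chr1:28259268-28259567, plus strand).
ATF3: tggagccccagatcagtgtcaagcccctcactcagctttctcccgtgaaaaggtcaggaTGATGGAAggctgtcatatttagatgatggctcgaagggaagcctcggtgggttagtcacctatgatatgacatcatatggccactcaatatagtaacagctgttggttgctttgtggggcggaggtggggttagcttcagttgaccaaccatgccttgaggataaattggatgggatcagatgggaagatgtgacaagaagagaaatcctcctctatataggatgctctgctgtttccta
CHAC1: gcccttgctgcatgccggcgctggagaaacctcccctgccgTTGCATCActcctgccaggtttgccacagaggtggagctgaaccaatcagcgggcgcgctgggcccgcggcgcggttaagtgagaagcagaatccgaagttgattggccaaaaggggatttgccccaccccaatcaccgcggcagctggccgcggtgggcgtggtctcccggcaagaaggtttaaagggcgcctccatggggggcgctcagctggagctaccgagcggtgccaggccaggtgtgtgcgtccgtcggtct
HERPUD1: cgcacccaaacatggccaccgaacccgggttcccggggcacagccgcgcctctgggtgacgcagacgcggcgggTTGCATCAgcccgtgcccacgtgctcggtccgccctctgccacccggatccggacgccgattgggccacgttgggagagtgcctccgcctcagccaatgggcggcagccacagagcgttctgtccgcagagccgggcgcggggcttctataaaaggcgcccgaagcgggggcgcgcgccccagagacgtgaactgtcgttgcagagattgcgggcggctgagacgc
ASNS: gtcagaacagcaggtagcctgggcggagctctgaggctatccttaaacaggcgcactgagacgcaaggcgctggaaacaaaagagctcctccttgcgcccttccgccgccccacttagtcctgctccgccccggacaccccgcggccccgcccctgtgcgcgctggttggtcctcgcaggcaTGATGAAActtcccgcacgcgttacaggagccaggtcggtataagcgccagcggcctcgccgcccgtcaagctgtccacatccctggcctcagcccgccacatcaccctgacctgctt
SESN2: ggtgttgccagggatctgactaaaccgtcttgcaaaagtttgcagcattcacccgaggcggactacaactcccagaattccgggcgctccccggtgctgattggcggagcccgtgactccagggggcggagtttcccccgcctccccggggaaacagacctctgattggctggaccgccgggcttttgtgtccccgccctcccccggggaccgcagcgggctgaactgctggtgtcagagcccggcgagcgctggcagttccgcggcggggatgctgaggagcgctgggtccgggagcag
The Ikaros core TGGGAA, searched in the same way, was in 21.8% of matched promoters of tested genes, 23.3% of the higher and 20.1% of the lower genes. Of the higher genes of the list, 11.8% held it. A match is a description of letters and not a shown binding site.

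SESN2 (sestrin 2, a leucine sensor that restrains mTORC1, chromosome 1, 28259518 to 28282491) had 96.4 and 87.9 CPM in the IKZF1 knockout, against 38.01 and 35.02 CPM in the IKZF3 knockout. The groups were far apart, with a log2 fold change of 1.34 ± 0.09 (edgeR, adjusted p = 1.05e-05, 0.00223 with the 4 libraries alone). Lenalidomide gave 38.8 and 33.2 CPM, beside the IKZF3 knockout, while the empty vector gave 178 and 167 CPM and untreated cells 293 and 299 CPM. In the authors' deposited table of log2 FPKM, SESN2 read 4.78 and 4.65 in the IKZF1 knockout columns and 3.44 and 3.32 in the IKZF3 knockout columns. PSPH (phosphoserine phosphatase, the last step of serine synthesis, chromosome 7, 56011064 to 56051444) followed the same order, with 68.2 and 60.1 CPM in the IKZF1 knockout and 27.1 and 30.2 CPM in the IKZF3 knockout. Its log2 fold change was 1.16 ± 0.09 (edgeR, adjusted p = 3.69e-05). Lenalidomide gave 35.4 and 32.0 CPM, the empty vector 89.4 and 85.4 CPM and untreated cells 107 and 108 CPM for PSPH.

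INHBE, the secreted inhibin beta E chain and not itself a member of the list, showed the same order with a wider gap. INHBE (chromosome 12, 57455307 to 57458025) had 58.8 and 51.8 CPM in the IKZF1 knockout, against 8.22 and 7.75 CPM in the IKZF3 knockout, a log2 fold change of 2.80 ± 0.17 (edgeR, adjusted p = 4.78e-05, 0.000176 with the 4 libraries alone). Under lenalidomide it had 14.9 and 9.63 CPM, with the empty vector 119 and 93.9 CPM and in untreated cells 163 and 141 CPM. The IKZF1 knockout therefore stood between the controls and the IKZF3 knockout for INHBE, SESN2 and PSPH.

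Factors and feedback genes of the response came next. CHAC1, which degrades glutathione, had 18.7 and 23.1 CPM in the IKZF1 knockout, against 10.4 and 10.6 CPM in the IKZF3 knockout (log2 fold change 0.99 ± 0.14). ATF3, a stress-induced transcription factor, had 36.8 and 35.2 CPM in the IKZF1 knockout, against 16.7 and 20.6 CPM in the IKZF3 knockout (0.94 ± 0.11). Lenalidomide gave 35.2 and 36.6 CPM of ATF3, beside the IKZF1 knockout, and untreated cells 44.4 and 48.2 CPM. TRIB3, a pseudokinase that restrains ATF4, had 55.5 and 55.3 CPM in the IKZF1 knockout, against 34.9 and 31.8 CPM in the IKZF3 knockout (0.74 ± 0.08). Lenalidomide gave 29.4 and 27.3 CPM of TRIB3 and untreated cells 134 and 127 CPM, so both knockouts lay below untreated cells. The adjusted p of CHAC1, ATF3 and TRIB3 were 0.00118, 0.000248 and 0.00019 by edgeR, and these calls held with the 4 libraries alone. CEBPB, a C/EBP partner of ATF4, had 74.0 and 74.9 CPM in the IKZF1 knockout, against 46.9 and 47.7 CPM in the IKZF3 knockout. ATF4 itself differed less, with 561 and 531 CPM in the IKZF1 knockout, against 444 and 449 CPM in the IKZF3 knockout (0.29 ± 0.07, edgeR, adjusted p = 0.017, 0.085 with the 4 alone and so lost there). ASNS, asparagine synthetase, had 146 and 110 CPM in the IKZF1 knockout, against 81.6 and 73.9 CPM in the IKZF3 knockout (0.72 ± 0.13), a call also lost with the 4 alone (edgeR, adjusted p = 0.0518).

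Of the genes of this list that act in or on the endoplasmic reticulum, HERPUD1, ERN1 and DNAJC3, chosen here after their values were seen, were higher in the IKZF1 knockout. HERPUD1, which serves degradation of misfolded proteins, had 536 and 402 CPM in the IKZF1 knockout, against 246 and 247 CPM in the IKZF3 knockout (log2 fold change 0.93 ± 0.12, edgeR, adjusted p = 0.00184). ERN1, the sensor that splices XBP1 mRNA, had 63.1 and 61.5 CPM in the IKZF1 knockout, against 37.3 and 38.5 CPM in the IKZF3 knockout (0.72 ± 0.09). DNAJC3, a co-chaperone that inhibits the kinase PERK, had 252 and 229 CPM in the IKZF1 knockout, against 179 and 164 CPM in the IKZF3 knockout (0.49 ± 0.07). These 3 calls held with the 4 libraries alone. The calls of MTHFD2, PDIA4, SLC38A2, SEL1L, XBP1, SLC1A5 and DDIT4, at log2 fold changes of 0.24 to 0.56, were lost with the 4 alone. The exception was ATF5, another ATF4-type factor, with 37.2 and 28.2 CPM in the IKZF1 knockout, against 49.8 and 48.2 CPM in the IKZF3 knockout (-0.58 ± 0.12), also lost with the 4 alone. HSPA5 (BiP) and DDIT3 (CHOP) were not called, at 0.13 and 0.48.

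**Figure D2:**
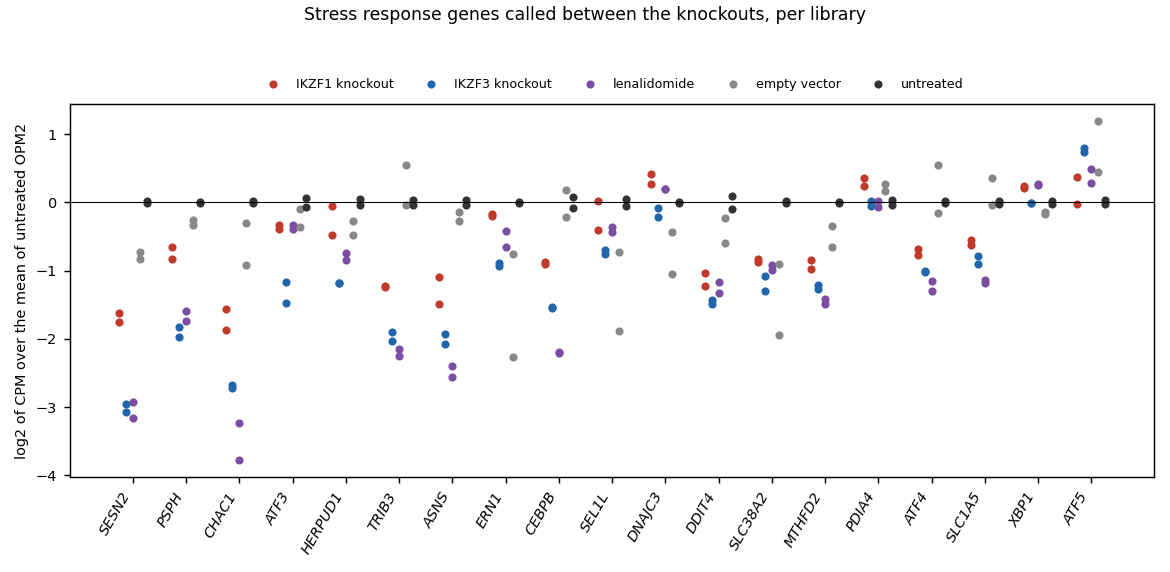
The 19 called stress genes on the x axis, with each library's CPM as log2 over the mean of untreated OPM2 cells on the y axis; each point is 1 library, coloured by group. For SESN2, PSPH, TRIB3, CHAC1 and ASNS the IKZF1 knockout points lie below the untreated ones and above both the IKZF3 knockout and lenalidomide points, and ATF5 runs the other way.

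Among called genes with a mean of at least 2 CPM over the 4 libraries and no overlap between the knockouts, the 15 largest log2 fold changes in favour of the IKZF1 knockout ran from 2.29 to 4.81, and 12 of the 15 stayed called with the 4 libraries alone. S100A16, a calcium-binding S100 protein (chromosome 1, 153606883 to 153613137), had 38.7 and 48.7 CPM in the IKZF1 knockout, against 2.02 and 4.81 CPM in the IKZF3 knockout. It was near 0 with the empty vector, at 0.443 and 0.0914 CPM, and in untreated cells, at 0.277 and 0.288 CPM, while lenalidomide gave 29.7 and 30.6 CPM. Both knockouts thus lay above the controls, with the IKZF1 knockout higher by 3.6 ± 0.29 on the log2 scale (edgeR, adjusted p = 0.000541, 0.0309 with the 4 alone). RBFOX1, a splicing factor, had 6.87 and 3.72 CPM in the IKZF1 knockout, against 0.506 and 0.449 CPM in the IKZF3 knockout, and 5.46 and 6.12 CPM under lenalidomide. Its level in the IKZF3 knockout was lower than in untreated cells, at 1.11 and 0.864 CPM, and its log2 fold change was 3.46 ± 0.37 (edgeR, adjusted p = 0.000146). CHI3L1, a secreted chitinase-like protein, had 2.81 and 4.78 CPM in the IKZF1 knockout, against 0.316 and 0.775 CPM in the IKZF3 knockout (2.70 ± 0.40).

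FUT1, a fucosyltransferase that makes the H antigen (chromosome 19, 48748011 to 48755358), had the opposite relation to the drug. It had 13.9 and 9.67 CPM in the IKZF1 knockout, against 1.202 and 1.468 CPM in the IKZF3 knockout, 1.91 and 1.06 CPM under lenalidomide, 11.7 and 9.87 CPM with the empty vector and 13.3 and 12.9 CPM in untreated cells. The low libraries were those of the IKZF3 knockout and lenalidomide, and the log2 fold change was 3.11 ± 0.25 (edgeR, adjusted p = 3.99e-05). PTPRN2, a receptor-type phosphatase family member of secretory vesicles, was likewise low in the IKZF3 knockout, with 5.95 and 12.8 CPM in the IKZF1 knockout, against 0.759 and 0.326 CPM in the IKZF3 knockout and 7.26 and 6.77 CPM in untreated cells. Its log2 fold change was 4.20 ± 0.49 (edgeR, adjusted p = 0.00147). TACC2, LZTS1, ANK2, FAM171A2, CLIC2 and GAS7 were also called in both fits, at log2 fold changes of 3.25, 2.86, 2.72, 2.68, 2.49 and 2.29.

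Calls of 3 of the 15 were lost with the 4 libraries alone. CGN, the tight junction protein cingulin, had 91.9 and 138 CPM in the IKZF1 knockout, against 10.1 and 19.3 CPM in the IKZF3 knockout (log2 fold change 2.93 ± 0.34, edgeR, adjusted p = 0.0102, 0.0896 with the 4 alone). The receptor gene CYSLTR1, for cysteinyl leukotrienes, had 6.94 and 10.8 CPM in the IKZF1 knockout, against 2.28 and 0.856 CPM in the IKZF3 knockout (2.6 ± 0.37, 0.0548 with the 4 alone, edgeR). KIR3DL2, an inhibitory receptor of NK cells, had 4.97 and 6.90 CPM in the IKZF1 knockout, against 0.506 and 0 CPM in the IKZF3 knockout (4.81 ± 0.73, 0.0802 with the 4 alone, edgeR), and reads of this gene may be shared with its near-identical relatives. The rule that chose these genes required both IKZF1 knockout libraries to be the higher ones, so their separation adds nothing. The 2 IKZF3 knockout libraries lay well apart in CGN and CYSLTR1.

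By the same limits on level and overlap, the 15 largest differences in the other direction ran from -1.49 to -2.93 on the log2 scale, and 9 of these stayed called with the 4 libraries alone. UNC13C, a priming factor of vesicle release (chromosome 15, 53837602 to 54633440), had 7.98 and 9.67 CPM in the IKZF1 knockout, against 38.5 and 51.2 CPM in the IKZF3 knockout. Lenalidomide gave 8.82 and 8.41 CPM, the empty vector 53.2 and 58.5 CPM and untreated cells 48.7 and 56.4 CPM. The IKZF3 knockout lay beside the controls and the IKZF1 knockout beside lenalidomide, with a log2 fold change of -2.35 ± 0.15 (edgeR, adjusted p = 2.35e-05). ADAM23, a disintegrin-like membrane protein, had 2.29 and 3.83 CPM in the IKZF1 knockout, against 11.5 and 13.7 CPM in the IKZF3 knockout. Lenalidomide gave 1.91 and 2.86 CPM of ADAM23, the empty vector 12.2 and 13.1 CPM and untreated cells 7.0 and 7.85 CPM. For ADAM23 the IKZF1 knockout lay near lenalidomide, and the IKZF3 knockout lay beside the empty vector and above untreated cells. Its log2 fold change was -2.03 ± 0.23 (edgeR, adjusted p = 0.000248).

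IGFBP7, a secreted binding protein of insulin-like growth factors (chromosome 4, 57030773 to 57110385), was highest in the IKZF3 knockout. It had 22.1 and 26.1 CPM in the IKZF1 knockout, against 92.9 and 66.0 CPM in the IKZF3 knockout, and 45.8 and 41.5 CPM in untreated cells. The log2 fold change was -1.72 ± 0.16 (edgeR, adjusted p = 0.000279). MEGF6, with epidermal growth factor-like domains, had 1.57 and 0.944 CPM in the IKZF1 knockout, against 12.9 and 6.48 CPM in the IKZF3 knockout (-2.93 ± 0.38), and untreated cells lay between at 4.95 and 4.75 CPM. CYTH4, PCDH18, SEMA4A, RAP1GAP2 and TSPOAP1 were also called in both fits, at -2.58, -2.06, -2.0, -1.92 and -1.53. The calls of DENND1C, ICAM3, HIST1H2BO, ZBTB7C, DIO2 and HIST1H2AI were lost with the 4 alone, and the histone genes HIST1H2BO and HIST1H2AI have near-identical copies between which reads may be split.

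**Figure D3:**
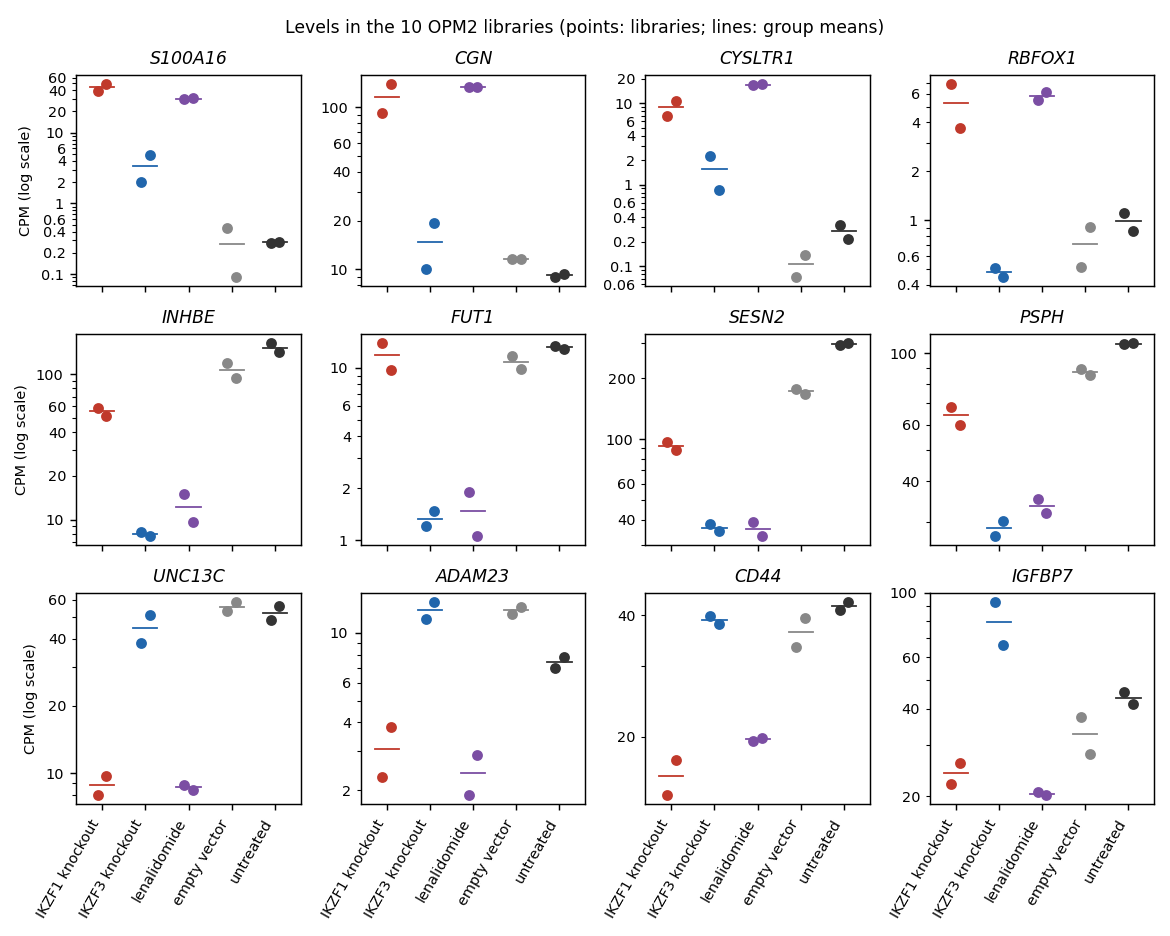
CPM of 12 genes on a log axis in the 10 OPM2 libraries, with a point per library and a line at each group mean. In the top row the IKZF1 knockout lies closer to lenalidomide than to the controls, in the middle row the IKZF3 knockout lies near lenalidomide and below the IKZF1 knockout, and in the bottom row the IKZF1 knockout lies near lenalidomide and below the IKZF3 knockout; for CGN and CYSLTR1 the call was lost with the 4 libraries alone.

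To describe which knockout departed from control levels, each gene was placed against the range of the 4 control libraries (2 empty vector, 2 untreated), a rule chosen after the data were seen and given without a test. A knockout counted as above or below where both of its libraries lay beyond that range by more than 1.5-fold. The empty vector libraries, with 998 tested genes more than 2-fold apart, can only widen this range, so more genes may count as within. Of the 221 genes more than 2-fold higher in the IKZF1 knockout, 74 were above the controls in the IKZF1 knockout and within their range in the IKZF3 knockout. Lenalidomide was above in 59 of these 74, against 128 of the 165 tested genes with this placement. In 39 of the 221 genes the IKZF3 knockout was below the controls and the IKZF1 knockout within. Lenalidomide was below in 9 of these 39, against 48 of the 136 tested genes with this placement. Among the 221, both knockouts were above in 8, both below in 4, both within in 95, and in 1 the IKZF1 knockout was above and the IKZF3 knockout below. Over all tested genes, 1.31% were above in the IKZF1 knockout alone and 1.08% below in the IKZF3 knockout alone. The call and the placement use the same 4 knockout libraries, so the larger shares among called genes follow in part from the choice.

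Genes above the controls without IKZF1 included SERPINH1, the collagen chaperone HSP47, with 144 and 176 CPM in the IKZF1 knockout, against 38.4 and 45.8 CPM in the IKZF3 knockout, and 175 and 177 CPM under lenalidomide. Untreated cells had 56.4 and 48.5 CPM of SERPINH1, and its log2 fold change was 1.92 ± 0.12 (edgeR, adjusted p = 2.35e-05). TPBG, the surface glycoprotein 5T4, had 18.4 and 20.5 CPM in the IKZF1 knockout, against 5.88 and 7.26 CPM in the IKZF3 knockout, with 27.9 and 25.9 CPM under lenalidomide. MACC1, a regulator of MET, was above the controls in the IKZF1 knockout but not under lenalidomide, with 22.1 and 22.7 CPM in the IKZF1 knockout, against 9.04 and 6.85 CPM in the IKZF3 knockout and 8.82 and 8.65 CPM under lenalidomide. SERPINH1, TPBG and MACC1 were picked here after their values were seen, as were the 2 genes that follow.

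Of the 68 genes more than 2-fold lower in the IKZF1 knockout, 17 were above the controls in the IKZF3 knockout alone, 10 were below in the IKZF1 knockout alone, 4 were above in both and 37 were within in both. The shares of all tested genes with these placements were 0.958%, 0.332%, 0.91% and 95.1%. Here too the call and the placement use the same 4 knockout libraries. ZNFX1, a helicase that senses viral RNA, was among the 17, with 24.7 and 21.1 CPM in the IKZF1 knockout, against 52.4 and 45.6 CPM in the IKZF3 knockout and 17.4 CPM in each untreated library (log2 fold change -1.10 ± 0.11, edgeR, adjusted p = 9.15e-05). LILRB4, an inhibitory receptor also found on plasma cells, was above the controls in both knockouts, with 189 and 205 CPM in the IKZF1 knockout, against 366 and 639 CPM in the IKZF3 knockout and 85.4 and 80.4 CPM in untreated cells. Its 2 IKZF3 knockout libraries were far apart, and its call (-1.35 ± 0.27, edgeR, adjusted p = 0.0409) was lost with the 4 alone at 0.165.

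**Figure D4:**
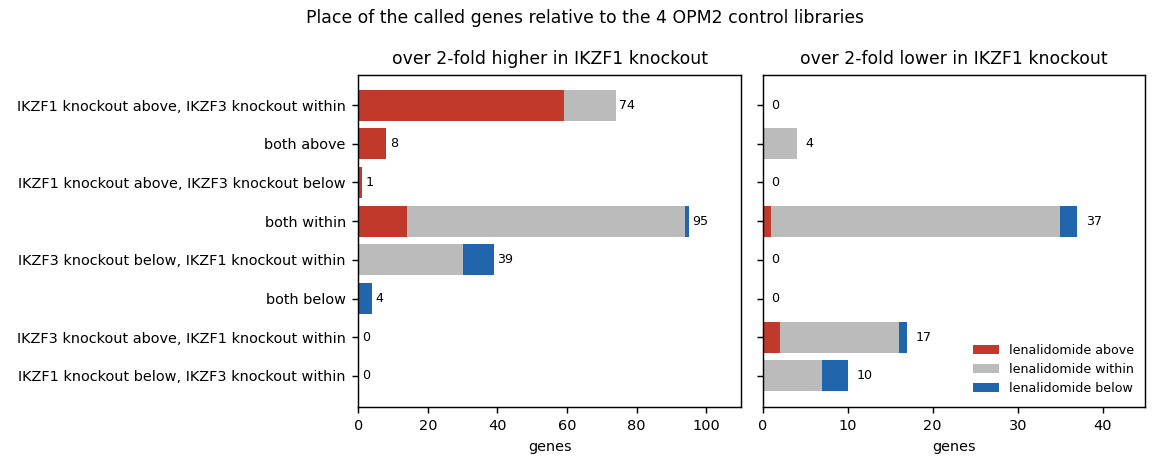
Numbers of genes on the x axis, by place of each knockout relative to the 4 OPM2 control libraries, for the 221 genes over 2-fold higher (left) and the 68 over 2-fold lower (right) in the IKZF1 knockout. Colours give the place of the lenalidomide libraries. Of the 74 genes above the controls in the IKZF1 knockout alone, 59 were also above under lenalidomide, against 128 of 165 over all tested genes.

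Of 22 tested genes of the plasma cell program, 2 were higher in the IKZF1 knockout and 2 lower, against 6.84% and 5.1% of all tested genes. With the 4 libraries alone 1 was higher and 1 lower, against 1.96% and 0.959% of all genes. The median log2 fold change of the list was -0.02. The master regulators IRF4 and PRDM1 were not called, at -0.08 ± 0.10 and -0.11 ± 0.08. IRF4 had 2345 and 1835 CPM in the IKZF1 knockout, against 2177 and 2255 CPM in the IKZF3 knockout, and the groups overlapped. ZBP1, a sensor of Z-form nucleic acids, had 36.5 and 37.0 CPM in the IKZF1 knockout, against 21.5 and 21.2 CPM in the IKZF3 knockout (0.78 ± 0.09, edgeR, adjusted p = 0.000174). JCHAIN, which joins polymeric immunoglobulin, had 6342 and 5770 CPM in the IKZF1 knockout, against 8174 and 8076 CPM in the IKZF3 knockout (-0.42 ± 0.07, edgeR, adjusted p = 0.00239). Both calls held with the 4 alone, while those of XBP1 and MZB1 were lost. Of the 16 tested genes around CD38 and NAD metabolism, 1 was higher in the IKZF1 knockout and 3 lower, against 6.84% and 5.1% of all tested genes. None of them was called with the 4 alone. The lower ones were NAMPT, the rate-limiting enzyme of NAD salvage, NMRK1 and NADSYN1, at -0.36, -0.36 and -0.43, and the higher one was PARP2 at 0.35.

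FGFR3, the receptor tyrosine kinase that t(4;14) places under an immunoglobulin enhancer, stood between the IKZF3 knockout and the controls after IKZF1 loss. It had 1292 and 1302 CPM in the IKZF1 knockout, against 787 and 845 CPM in the IKZF3 knockout, 807 and 777 CPM under lenalidomide, 2188 and 2170 CPM with the empty vector and 2329 and 2282 CPM in untreated cells. The log2 fold change was 0.67 ± 0.06 (edgeR, adjusted p = 8.09e-05, 0.00768 with the 4 alone), and the call was lost when libraries of the other lines were added (0.271 with 16 libraries, 0.347 with all 18). NSD2, its partner in the translocation, was not called at 0.01 ± 0.08.

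Transcripts of several surface proteins of myeloma were lower without IKZF1 than without IKZF3. Of 21 tested targets and adhesion antigens, 7 were lower and 1 higher in the IKZF1 knockout, against 5.1% and 6.84% of all tested genes. With the 4 libraries alone 3 were lower and 1 higher, against 0.959% and 1.96% of all genes, and the median was -0.25. CD44, the hyaluronan receptor (chromosome 11, 35139171 to 35232402), had 14.4 and 17.6 CPM in the IKZF1 knockout, against 39.8 and 38.1 CPM in the IKZF3 knockout. Lenalidomide gave 19.6 and 19.8 CPM and untreated cells 41.1 and 43.1 CPM, so the IKZF3 knockout lay beside the controls. The log2 fold change of CD44 was -1.28 ± 0.11 (edgeR, adjusted p = 3.99e-05).

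CD28, a costimulatory receptor also found on myeloma cells, had 215 and 207 CPM in the IKZF1 knockout, against 303 and 299 CPM in the IKZF3 knockout (log2 fold change -0.51 ± 0.06). CD55, an inhibitor of complement, had 26.2 and 24.7 CPM in the IKZF1 knockout, against 38.1 and 36.1 CPM in the IKZF3 knockout (-0.54 ± 0.09), and both calls held with the 4 alone. The calls of CD59, CD47, CXCR4 and GPRC5D (-0.32, -0.42, -0.30 and -0.92) were lost there. The tetraspanin CD9 was the one higher gene, at a low level of 1.37 and 1.53 CPM in the IKZF1 knockout, against 0 and 0.204 CPM in the IKZF3 knockout. The antibody and CAR targets SDC1, TNFRSF17 (BCMA) and SLAMF7 were not called, at 0.04 ± 0.09, -0.22 ± 0.10 and -0.40 ± 0.33.

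Of 22 tested genes of MHC class I presentation, 10 were lower in the IKZF1 knockout and 0 higher, against 5.1% and 6.84% of all tested genes. With the 4 libraries alone 2 were lower, against 0.959% of all genes. The median log2 fold change over the list was -0.23, and 5 of its genes had a positive value. HLA-E, the ligand of NKG2A on NK cells, had 352 and 307 CPM in the IKZF1 knockout, against 529 and 463 CPM in the IKZF3 knockout (-0.59 ± 0.09, edgeR, adjusted p = 0.0014). B2M, the light chain of class I, had 1957 and 1989 CPM in the IKZF1 knockout, against 2563 and 2472 CPM in the IKZF3 knockout (-0.35 ± 0.07, edgeR, adjusted p = 0.00509). Both knockouts lay above the untreated libraries for B2M, at 1544 and 1529 CPM. HLA-E and B2M were the genes whose calls held with the 4 alone, and both were lost with all 18 libraries, at adjusted p of 0.118 and 0.316 in edgeR. Class I genes are near-identical in parts, so reads may be split between HLA-B, HLA-C and HLA-E.

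Among the interferon signalling genes, IRF9 and IRF2 were lower in the IKZF1 knockout than in the IKZF3 knockout. IRF9, the DNA-binding subunit of the interferon-stimulated factor, had 11.4 and 10.3 CPM in the IKZF1 knockout, against 20.3 and 21.4 CPM in the IKZF3 knockout (log2 fold change -0.94 ± 0.12, edgeR, adjusted p = 0.000408). Untreated cells had 10.2 and 10.2 CPM of IRF9, the empty vector 13.1 and 9.46 CPM and lenalidomide 13.4 and 13.1 CPM. The IKZF1 knockout thus lay near the controls for IRF9, and the IKZF3 knockout above them. IRF2, a repressor and activator of interferon targets, had 20.1 and 19.6 CPM in the IKZF1 knockout, against 33.3 and 34.6 CPM in the IKZF3 knockout (-0.77 ± 0.09). Untreated cells had 47.6 and 45.1 CPM of IRF2, the empty vector 25.1 and 30.2 CPM and lenalidomide 23.2 and 24.2 CPM. The calls of IRF9 and IRF2 held with the 4 alone.

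Of the 24 tested interferon receptors and signalling genes, 6 were lower and 2 higher, against 5.1% and 6.84% of all tested genes. With the 4 alone 3 were lower and 0 higher, against 0.959% and 1.96% of all genes. Of 47 tested type I interferon-stimulated genes, 5 were higher and 4 lower, against 6.84% and 5.1% of all tested genes, and their median was -0.01. IFIT5 and IFI6 illustrate the higher ones, with IFI6 at 7.85 and 10.6 CPM in the IKZF1 knockout, against 5.88 and 5.75 CPM in the IKZF3 knockout and 22.2 and 21.8 CPM under lenalidomide. These 2 calls were lost with the 4 alone. PARP9 ran the other way, with 6.87 and 9.85 CPM in the IKZF1 knockout, against 11.9 and 18.3 CPM in the IKZF3 knockout and 0.647 and 0.792 CPM in untreated cells, also lost with the 4 alone.

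Adhesion genes changed in both directions. Of 29 tested, 8 were higher and 8 lower in the IKZF1 knockout, against 6.84% and 5.1% of all tested genes. With the 4 libraries alone 3 were higher and 4 lower, against 1.96% and 0.959% of all genes. VCL, vinculin, which ties integrins to actin (chromosome 10, 73998116 to 74121363), had 191 and 200 CPM in the IKZF1 knockout, against 95.1 and 91.1 CPM in the IKZF3 knockout. Lenalidomide gave 207 and 200 CPM, the empty vector 37.9 and 65.8 CPM and untreated cells 86.9 and 87.1 CPM, so the IKZF3 knockout lay near the untreated cells and above the empty vector. The log2 fold change of VCL was 1.07 ± 0.07 (edgeR, adjusted p = 6.94e-06).

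ITGB5, an integrin beta chain, had 545 and 585 CPM in the IKZF1 knockout, against 852 and 754 CPM in the IKZF3 knockout (log2 fold change -0.51 ± 0.07), and both knockouts lay above untreated cells, at 347 and 343 CPM. PECAM1, an immunoglobulin-family adhesion molecule, was higher in the IKZF1 knockout (0.96 ± 0.18), and ALCAM (-1.27 ± 0.18) was lower. These calls held with the 4 alone, and that of ALCAM was lost with 16 and with all 18 libraries, at 0.140 and 0.138. Of 35 tested genes of the leukocyte actin cytoskeleton, 6 were lower and 2 higher, against 5.1% and 6.84% of all tested genes. The one called with the 4 alone was LCP1 (L-plastin), lower at 3.27 and 2.89 CPM in the IKZF1 knockout, against 6.14 and 6.77 CPM in the IKZF3 knockout.

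**Figure D5:**
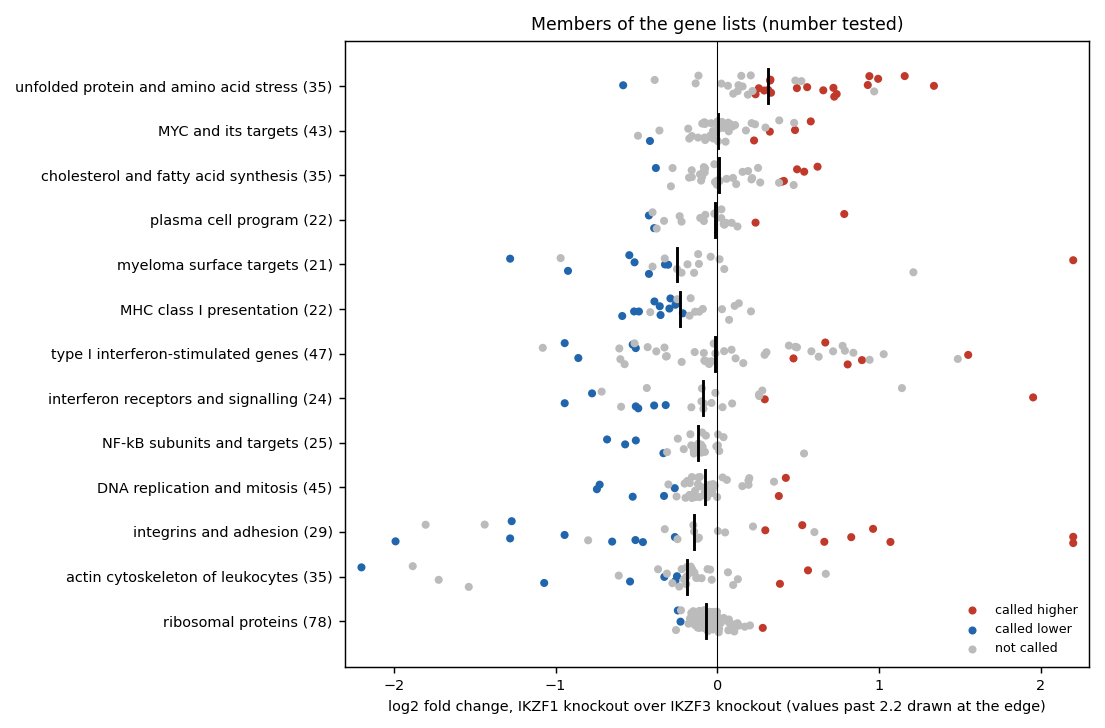
Log2 fold change, IKZF1 knockout over IKZF3 knockout, of each tested member of 13 gene lists (rows, number tested in brackets); bars mark medians, red and blue points were called with 8 libraries, and values past 2.2 are drawn at the edge. The stress list has its median at 0.31, the MHC class I list at -0.23 and the surface target list at -0.25, against 0.00 for all tested genes.

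Growth control genes differed at single members. MYC, the transcription factor that drives growth of myeloma cells, had 362 and 311 CPM in the IKZF1 knockout, against 212 and 239 CPM in the IKZF3 knockout, 221 and 220 CPM under lenalidomide and 536 and 542 CPM in untreated cells. The IKZF1 knockout lay between, with a log2 fold change of 0.58 ± 0.08 (edgeR, adjusted p = 0.00118, 0.0299 with the 4 alone, 0.0537 with all 18 and so lost there). Of 43 tested genes of MYC and its targets, 4 were higher and 1 lower, against 6.84% and 5.1% of all tested genes, and the median was 0.00. With the 4 alone MYC was the one still called, and the calls of MXI1, NME1, HSPD1 and MNT were lost. CDKN1A, the cyclin-dependent kinase inhibitor p21, had 150 and 142 CPM in the IKZF1 knockout, against 64.8 and 64.1 CPM in the IKZF3 knockout, with 122 and 120 CPM under lenalidomide and 95.5 and 75.5 CPM in untreated cells. Its log2 fold change was 1.18 ± 0.10 (edgeR, adjusted p = 3.99e-05).

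Among 45 tested genes of DNA replication and mitosis, 5 were lower in the IKZF1 knockout and 2 higher, against 5.1% and 6.84% of all tested genes, with a median of -0.08. With the 4 libraries alone 2 were lower and 1 higher, against 0.959% and 1.96% of all genes. CCNE1, cyclin E1, had 15.4 and 15.6 CPM in the IKZF1 knockout, against 26.6 and 25.5 CPM in the IKZF3 knockout (log2 fold change -0.74 ± 0.10, edgeR, adjusted p = 0.000946). E2F1 had 48.2 and 47.8 CPM in the IKZF1 knockout, against 65.6 and 72.3 CPM in the IKZF3 knockout (-0.52 ± 0.08), while CDC6, a loader of the replicative helicase, was higher at 208 and 185 CPM in the IKZF1 knockout, against 146 and 147 CPM in the IKZF3 knockout (0.42 ± 0.08). All 3 held with the 4 alone, and those of E2F1 and CDC6 were lost with all 18 libraries, at 0.165 and 0.0626. MKI67 was not called, at -0.11 ± 0.10, with 290 ± 28.9 CPM in the IKZF1 knockout and 313 ± 32.6 CPM in the IKZF3 knockout (SD, n = 2 each). Of the 19 tested p53 targets, 1 was higher, CDKN1A itself, and 1 lower, MDM2, whose call was lost with the 4 alone (edgeR, adjusted p = 0.150).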

How the data were processed

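RNA-seq counts from OPM2 cells were compared between IKZF1 knockout and IKZF3 knockout (2 libraries each). The authors deposited raw counts per Entrez gene, made with Subread and featureCounts on GRCh38 per the submitters' processing notes, whose versions and settings are not given in the sources used here. The authors also deposited log2 FPKM values, normalized and with controls merged per the file headers; they serve for one cross-check and one alternative. Rows with no gene symbol took under 0.03% of counts. The members and gene lists were chosen with earlier results of these data known.

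Counts were tested with edgeR 4.0.16 (filterByExpr, TMM scaling, robust quasi-likelihood test, Benjamini-Hochberg adjustment over 12633 genes) in R 4.3.3, over the 8 OPM2 libraries outside the empty vector pair, with a called gene at an adjusted p below 0.05. Standard errors are the log2 fold change over the root of the F statistic. The code was tested on simulated data. Named genes are IKZF1, IKZF3, CD38, the 15 highest and 15 lowest called genes with mean CPM of at least 2 and no overlap between knockouts, and up to 4 members of each list by p; pseudogenes, antisense transcripts and immunoglobulin segments were passed over. Other members of a list and genes said to be picked after their values were seen fall outside this rule. Coordinates are those of RefSeq for GRCh38.p14.

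Nothing in the labels says that the 2 libraries of a knockout come from separate cultures, so p-values measure the spread between these libraries, which may be technical. An exact permutation test of 2 against 2 libraries cannot go below p = 0.333. In bulk RNA, fewer cells expressing a gene and less RNA per cell cannot be told apart. Alternatives were other sets of libraries, scalings, filters and tests, including DESeq2 1.42.0 and limma 3.58.1, and leaving out each library. A few genes are not reported here. The libraries of H929 and MM1S enter only the alternatives with 16 and 18 libraries.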

Additional observations from a re-analysis of the deposited data

How the results depend on the processing

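The count of genes that differed between the knockouts, 1508 (864 higher, 644 lower in the IKZF1 knockout), depends on which libraries set the spread. It was 356 (239 higher, 117 lower) with the 4 compared libraries alone and 377 (248 higher, 129 lower) with all 18 libraries, and 221 genes were called in these 2 fits and in the one with 8 libraries. The common dispersion was 0.00621 with 8 libraries, 0.0118 with 4 and 0.017 with 18. A test against a 1.5-fold change called 106 (87 higher, 19 lower). A limma test of the authors' log2 FPKM, added after the data were seen and limited to genes with a mean of at least 0, called 128 (80 higher, 48 lower) of 10383, of which 119 were also called from the counts. With no filter on low counts, 2195 genes were called (1179 higher, 1016 lower). Leaving out one library at a time gave 877 to 1852 genes, with 541 to 1052 higher and 336 to 800 lower, and the lowest values came without IKZF3 knockout library a; 542 genes stayed called whichever library was left out. Called members summed over the gene lists were 138, against 38 with the 4 alone, 39 with all 18, 9 against a 1.5-fold change, 18 from log2 FPKM and 85 to 162 without one library. With 16 libraries, DESeq2 size factors, upper quartile scaling, a filter at 5 CPM, DESeq2's Wald test or limma-voom the count was 1151 to 1503. Upper quartile scaling gave 931 higher and 569 lower. Of 110 named genes called, 0 changed direction in any alternative; 51 of 109 with a value stayed called with the 4 alone, 54 with all 18 and 91 with 16. The 51 also kept their calls whichever library was left out, while 44 of the other 59 lost theirs without at least 1 library: 13 and 17 named genes without IKZF1 knockout library a or b, 37 and 23 without IKZF3 knockout library a or b. IKZF1, IKZF3 and CD38 were not called under any alternative run. No paired analysis was possible because the knockout columns carry no replicate numbers that match those of the sample titles.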

Other observations

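The counts of further lists stand against 6.84% of all tested genes called higher and 5.1% called lower, and against 1.96% and 0.959% with the 4 libraries alone. Of 25 tested NF-kB subunits and targets, 4 were lower in the IKZF1 knockout and 0 higher, with a median log2 fold change of -0.12. TNFAIP3 (A20, the feedback inhibitor of the pathway) had 19.2 and 20.8 CPM in the IKZF1 knockout, against 35.1 and 29.4 CPM in the IKZF3 knockout (-0.68 ± 0.11, edgeR, adjusted p = 0.00222), and was the member still called with the 4 libraries alone, though not with all 18 (0.135). Among 22 tested KLF and EGR-AP1 factors, 3 were higher and 6 lower, so that 9 of the 22 were called, against 11.9% of all tested genes. FOSL2, an AP-1 subunit, had 12.2 and 13.2 CPM in the IKZF1 knockout, against 21.1 and 21.5 CPM in the IKZF3 knockout (-0.75 ± 0.11). With the 4 alone FOSL2 and ATF3 stayed called, 1 lower and 1 higher, and the other 7 calls were lost. Of 35 tested genes of cholesterol and fatty acid synthesis, 5 were higher, among them LPIN1, FADS1 and INSIG2, and 1 lower, none of them called with the 4 alone. Of 33 tested BCL2 family and cell death genes, 2 were higher and 2 lower, MCL1 among the lower at -0.30 ± 0.07, with no call in the 4 alone. Of 30 tested glycolysis and hypoxia genes, 1 was higher and 1 lower, PFKFB3, at 39.6 and 37.7 CPM in the IKZF1 knockout, against 54.96 and 55.45 CPM in the IKZF3 knockout. Of 78 ribosomal protein genes, 1 was higher and 2 were lower, with a median of -0.07 and no call with the 4 alone. The 13 tested members of the cereblon and neosubstrate list and the 16 of the NuRD complex had 2 (ZFP91 and ZNF276) and 1 (SIN3A) lower, and 0 higher, and these 3 calls were lost with the 4 alone.

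Genes of other blood lineages also differed. HBD, the delta globin gene, had 75.5 and 60.3 CPM in the IKZF1 knockout, against 169 and 150 CPM in the IKZF3 knockout, 53.5 and 47.5 CPM under lenalidomide and 125 and 111 CPM in untreated cells (-1.23 ± 0.12, edgeR, adjusted p = 0.00019, 0.00772 with the 4 alone). Of other globin genes, HBB was called lower and HBE1 higher in the IKZF1 knockout. The call of HBE1 held whichever library was left out, and that of HBB did not. HBA1, which marks erythroid cells, was at 0 in these libraries. CD33, a myeloid surface lectin, had 20.4 and 8.43 CPM in the IKZF1 knockout, against 2.34 and 3.83 CPM in the IKZF3 knockout (2.18 ± 0.44), with the 2 IKZF1 knockout libraries well apart and the call lost with the 4 alone. Differences between the knockouts were almost unrelated to transcript length and GC content, with Spearman coefficients of 0.073 and -0.056 across 12348 genes, which are not independent replicates; between the 2 empty vector libraries they were -0.564 and 0.61.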
